A study of Mus musculus with 2 samples.

Results

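The 32 genes described here, of 27998 genes counted, encode the enzymes of glycolysis and the proteins that sense or answer a lack of oxygen. They were taken by symbol from the gene list of the deposited counts, and all 32 were found there. The counts come from single cells of the mouse lung, sorted as positive for VE-cadherin, an endothelial junction protein, and negative for CD45, a leukocyte protein. There was 1 library labelled WT (wild type) and 1 labelled KO (knockout), both from C57BL/6J mice aged 10 to 12 weeks, made with the same kit in a study of a mouse model of hereditary hemorrhagic telangiectasia type 2. The labels give neither the deleted gene, nor the allele or Cre driver, nor how many animals were pooled. Lungs were dissociated with dispase at 5 mg/ml for 1 h and with DNase I at 50 µg/ml for 30 min, at room temperature in the first step.

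Glycolysis splits glucose into pyruvate. Hexokinases trap the sugar, phosphofructokinases commit it to the pathway, later enzymes recover the energy, and lactate dehydrogenase turns pyruvate into lactate. When oxygen falls, the prolyl hydroxylases (Egln genes) and the von Hippel-Lindau protein no longer remove the alpha subunits Hif1a and Epas1 (HIF-2 alpha), which pair with Arnt and switch on many of these same enzymes together with genes such as Bnip3, Ndrg1 and Ankrd37. The HIF proteins are controlled largely after translation, so their transcript levels are not a measure of their activity. Lung endothelium is known for high Epas1, and sprouting endothelial cells for their use of glycolysis through Pfkfb3, which makes the activator of phosphofructokinase.

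The WT library held 25667220 UMIs (unique molecular identifiers, each standing for 1 captured transcript) and the KO library 17864581. After filters, 2708 WT and 1314 KO cells were kept, with medians of 5423 and 8654 UMIs. Despite the sort, 806 WT and 586 KO cells were like alveolar type 2 (AT2) cells, and fibroblast-like and smooth muscle-like cells were present too. In these 3 classes Cdh5, which encodes VE-cadherin, stood between 1.81 and 31.6 CPM (the share of a class's UMIs, in parts per 1000000), against 805 CPM or more in every endothelial class. The endothelial classes were general capillary-like cells (gCap, 800 WT and 230 KO), aerocyte-like cells (aCap, 395 and 71), arterial-like cells (71 and 22), venous-like cells (55 and 13), a cluster led by Esm1 that held 4 arterial markers but was kept apart (168 and 23) and a cluster of 118 KO cells and 0 WT cells, led by Apln, Igfbp3 and Peg3, called KO-only below. WT endothelial-like cells with sex-linked UMIs were of the Xist type (1371 Xist only, 0 Y only), while the KO library held both types (74 and 262), so genotype, library and sex cannot be told apart in a comparison of the libraries. Acvrl1, the gene of the human disease, had levels of 1321 CPM (gCap-like cells, WT), 1238 CPM (the same class, KO) and 410 CPM (the KO-only cluster). Its counts come from the 3′ end, and whether they lie in a deleted part is not known here. The libraries shared 12 cell barcodes, 6 of them among kept cells.

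With 1 library a group there is no replicate error and no test. UMIs were summed over the cells of a class, and a difference was called where it was at least 1.5-fold at a mean of 10 CPM or more, with 95% Poisson intervals of the levels apart and the interval of the ratio away from 1. These intervals, given in parentheses, cover counting error only, and cells of 1 library are not replicates. The share of all genes called the same way is printed beside each first count of members.

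Within the KO library, members differed between endothelial-like cells without and with transcripts of Id1 and Id3, the transcriptional inhibitors that BMP receptor signalling induces. Among KO endothelial-like cells with at least 1500 UMIs, 121 of 459 (26.4%, exact binomial interval 22.4 to 30.6%) had 0 UMIs of both genes, against 77 of 1412 WT cells (5.45%, 4.33 to 6.77%). Of the 121 negative KO cells, 91 lay in the KO-only cluster. By class, 91 of 115 KO-only, 12 of 68 aCap-like and 15 of 220 gCap-like KO cells were negative. The gate thus compares unlike mixes of classes, with gCap-like cells mostly on the positive side. Against the 338 positive KO cells, 7 of the 26 members at or above 10 CPM were called higher (6.53% of all genes were) and 2 were called lower (6.15% of all genes). Those higher were Gpi1, Pfkp, Pfkfb3 and Pkm of glycolysis and Bnip3, Ndrg1 and Ankrd37 of the hypoxia response, and those lower were Epas1 and Hilpda. Gpi1, Pfkp, Epas1 and Hilpda were called in the same directions in WT aCap-like over WT gCap-like cells (below). The part of the class mix in these calls was not tested. The median log2 ratio was 0.23 over the 26 members and -0.03 over all genes. The gate was also uneven in sex type. Of the KO cells typed, 52 Xist-only and 46 Y-only cells were negative, against 21 Xist-only and 211 Y-only positive cells. The comparison of all negative with all positive KO cells therefore does not separate the gate from sex type.

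**Figure D1:**
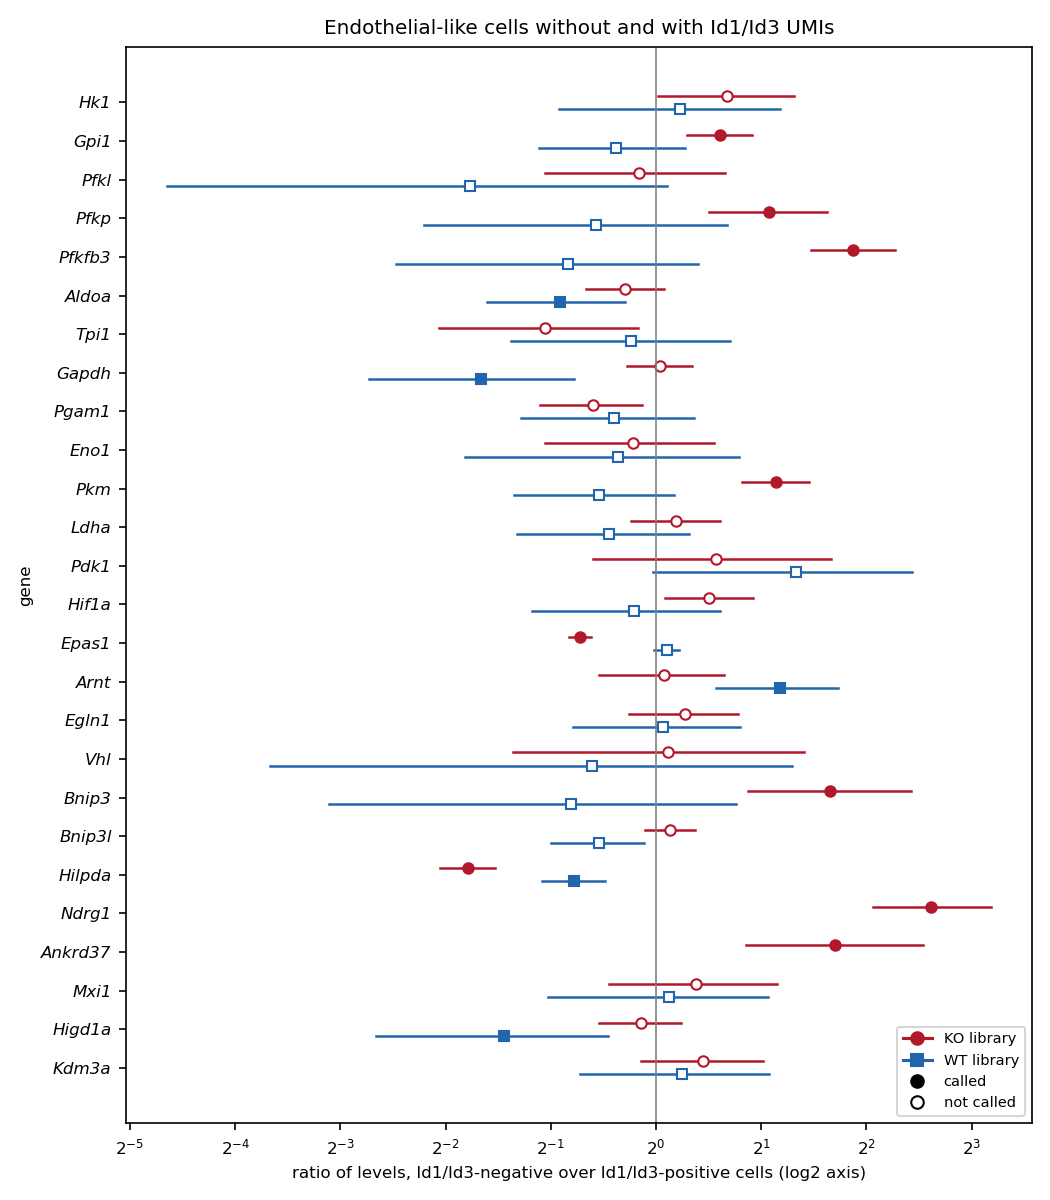
Ratio of levels in Id1/Id3-negative over Id1/Id3-positive endothelial-like cells (x axis, log2 scale) for members tested in the KO library, with the KO library as red circles and the WT library as blue squares, 95% intervals of the ratio as lines, and filled symbols where the ratio was called (no WT symbol where a gene was too low there to be tested). Ndrg1 (6.12-fold), Pfkfb3 (3.66-fold), Ankrd37 and Bnip3 lie farthest to the right in the KO library and Hilpda (0.290) farthest to the left.

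For 29 of the 32 genes a RefSeq promoter sequence (build GRCm38.p6) was at hand, in 46 entries. The letters ACGTG, the core of the element that HIF binds, were searched on both strands in the 250 bases before each start, so that CACGTG counts on each strand. They stood in 21 of the 46 entries (45.7%), against 16.6% of all 32851 entries. The related core GCGTG stood in 45.7% of the members' entries and 28.2% of all. Of the 6 members called higher in Id-negative KO cells that had an entry, 4 held ACGTG before at least 1 start (Pfkfb3, Pkm, Bnip3 and Ankrd37) and Gpi1 and Pfkp did not, and Hilpda, called lower, held it before 1 of its starts. Counted by gene in the same way, 17 of the 29 members with an entry held ACGTG. The 4 of 6 is thus near the share of the whole set. A match is no evidence of binding. The stretches before the start of 3 genes with ACGTG and of Pfkp without it are shown on the strand of the gene, 5′ to 3′. They are free of annotated exons, with ACGTG and its reverse complement CACGT in capitals. The related core GCGTG is not marked, and it stood 3 times in the 250 bases before the start of Pfkp.
Pfkfb3, chr2:11502102-11502340, minus strand: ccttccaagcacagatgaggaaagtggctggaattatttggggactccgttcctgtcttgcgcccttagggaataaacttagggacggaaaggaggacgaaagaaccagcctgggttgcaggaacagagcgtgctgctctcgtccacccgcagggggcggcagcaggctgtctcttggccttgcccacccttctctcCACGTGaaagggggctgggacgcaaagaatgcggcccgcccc
Bnip3, chr7:138909520-138909756, minus strand: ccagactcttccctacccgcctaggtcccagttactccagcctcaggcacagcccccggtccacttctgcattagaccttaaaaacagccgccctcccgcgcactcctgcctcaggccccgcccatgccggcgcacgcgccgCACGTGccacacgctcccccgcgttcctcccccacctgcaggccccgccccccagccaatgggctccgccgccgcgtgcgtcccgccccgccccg
Ankrd37, chr8:45999868-46000100, minus strand: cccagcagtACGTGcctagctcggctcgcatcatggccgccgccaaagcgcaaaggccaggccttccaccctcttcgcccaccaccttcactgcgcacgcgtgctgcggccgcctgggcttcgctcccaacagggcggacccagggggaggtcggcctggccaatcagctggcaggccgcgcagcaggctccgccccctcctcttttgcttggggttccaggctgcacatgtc
Pfkp, chr13:6648778-6649021, minus strand: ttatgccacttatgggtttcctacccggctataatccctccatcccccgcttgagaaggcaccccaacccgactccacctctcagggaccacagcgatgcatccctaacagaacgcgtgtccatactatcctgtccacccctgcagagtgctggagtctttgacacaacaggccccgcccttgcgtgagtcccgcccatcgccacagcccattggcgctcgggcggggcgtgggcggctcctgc
The windows of Pfkfb3 and Ankrd37 lie inside the annotated span of their genes, before an internal start, and those of Bnip3 and Pfkp directly before the gene.

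Among the early glycolytic genes, Pfkfb3 (ENSMUSG00000026773, chr2:11471433-11554077, minus strand), shown above by its promoter, differed most. It stood at 192 CPM (159 to 231) in negative and 52.5 CPM (42.8 to 63.7) in positive KO cells, 3.66-fold (2.78 to 4.83). Pfkp, the platelet-type phosphofructokinase, stood at 76.9 against 36.5 CPM, 2.10-fold (1.42 to 3.09). Gpi1, which turns glucose phosphate into fructose phosphate, stood at 219 against 144 CPM, 1.52-fold (1.23 to 1.88), just past the fold required, and without the 5 negative cells highest for it the log2 ratio was 0.24, under that fold. Hk1, the hexokinase of these cells, at 53.5 against 33.4 CPM, and Pfkl, the liver-type phosphofructokinase, at 26.7 against 29.8 CPM, were not called. So the genes of the phosphofructokinase step that were higher were the activator and 1 of the subunits.

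In the later steps only Pkm, the pyruvate kinase of the final step, was called, at 232 CPM (195 to 274) against 105 CPM (91.5 to 121), 2.20-fold (1.76 to 2.75). Aldoa (130 against 159 CPM), Tpi1 (20.1 against 41.7 CPM), Gapdh (194 against 189 CPM), Pgam1 (75.2 against 114 CPM) and Eno1 (30.1 against 35.0 CPM) were not called, and 4 of these 5 lay lower in negative cells. The negative cells were thus not higher along the whole pathway. Ldha, lactate dehydrogenase, stood at 109 against 95.2 CPM, and Pdk1, the kinase that keeps pyruvate out of mitochondria, at 18.4 against 12.3 CPM. The glucose carrier Slc2a1 and the lactate carrier Slc16a3 were under 10 CPM in both groups.

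Of the hypoxia-induced genes, Ndrg1 (ENSMUSG00000005125, chr15:66929318-66969640, minus strand), a stress-response gene, stood at 135 CPM (108 to 168) in negative and 22.1 CPM (16 to 29.8) in positive KO cells, 6.12-fold (4.18 to 9.08). Bnip3, a mitochondrial protein that marks mitochondria for removal, stood at 50.1 against 15.9 CPM, 3.14-fold (1.84 to 5.37). Its relative Bnip3l was abundant and alike, at 326 against 296 CPM with a ratio of 1.10 (0.930 to 1.30). Ankrd37 stood at 43.5 against 13.4 CPM, but 69.2% of its 26 UMIs in negative cells came from 5 cells, and without them its log2 ratio was 0.05 against 1.70. Hilpda, which blocks the breakdown of stored fat and is a HIF target in many cells, went the other way, at 231 CPM (194 to 273) against 796 CPM (757 to 837). Mxi1 (33.4 against 25.7 CPM), Higd1a (120 against 133 CPM) and Kdm3a (61.8 against 45.3 CPM) were not called.

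Of the oxygen-sensing genes, Epas1 (ENSMUSG00000024140, chr17:86753700-86833410, plus strand) was lower, at 1444 CPM (1349 to 1544) in negative and 2381 CPM (2313 to 2451) in positive KO cells, a ratio of 0.607 (0.563 to 0.652). Hif1a stood at 117 against 82.3 CPM (1.42-fold, 1.06 to 1.89) and was not called. Arnt, Egln1 and Vhl had ratios of 1.05, 1.21 and 1.08, none called, and Egln3 had 0 UMIs in negative cells. Epas1 remained the most abundant member in both groups.

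Sftpc, an AT2 gene that measures free RNA here, stood at 1633 CPM in negative and 1433 CPM in positive KO cells, so AT2 RNA was at a like level. The oxidative phosphorylation list had 2 of 29 genes lower and 0 higher, with a summed level of 5031 against 6002 CPM. The dissociation and heat stress list had 4 of 17 tested genes lower and 1 higher, with summed levels of 4936 against 5467 CPM. The part of either list in the members' differences was not tested.

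Against all 1412 WT endothelial-like cells with at least 1500 UMIs, the Id-negative KO cells had 8 of 26 members higher (8.36% of all genes were) and 3 lower (10.1% of all genes). The 7 genes called higher within the KO library were among the 8. Ndrg1 stood at 135 against 13.3 CPM, 10.2-fold (7.42 to 13.9), and Pfkfb3 at 192 against 42.5 CPM, 4.52-fold (3.60 to 5.63). The additional gene was Hif1a, at 117 CPM (91.2 to 148) against 66.9 CPM (60.8 to 73.5), 1.75-fold (1.34 to 2.26). Epas1 was lower, at 1444 against 2859 CPM, and Hilpda too, at 231 against 801 CPM. Tpi1, triose phosphate isomerase, was lower as well, at 20.1 against 51.0 CPM with 12 UMIs in the negative cells. The comparison shares its negative cells with the previous comparison. Of the dissociation and heat stress list 10 of 18 genes were lower and 0 higher, with summed levels of 4936 against 6773 CPM, and the 12 AT2 markers summed to 2761 against 4681 CPM. Their part in the result was not tested.

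**Figure D2:**
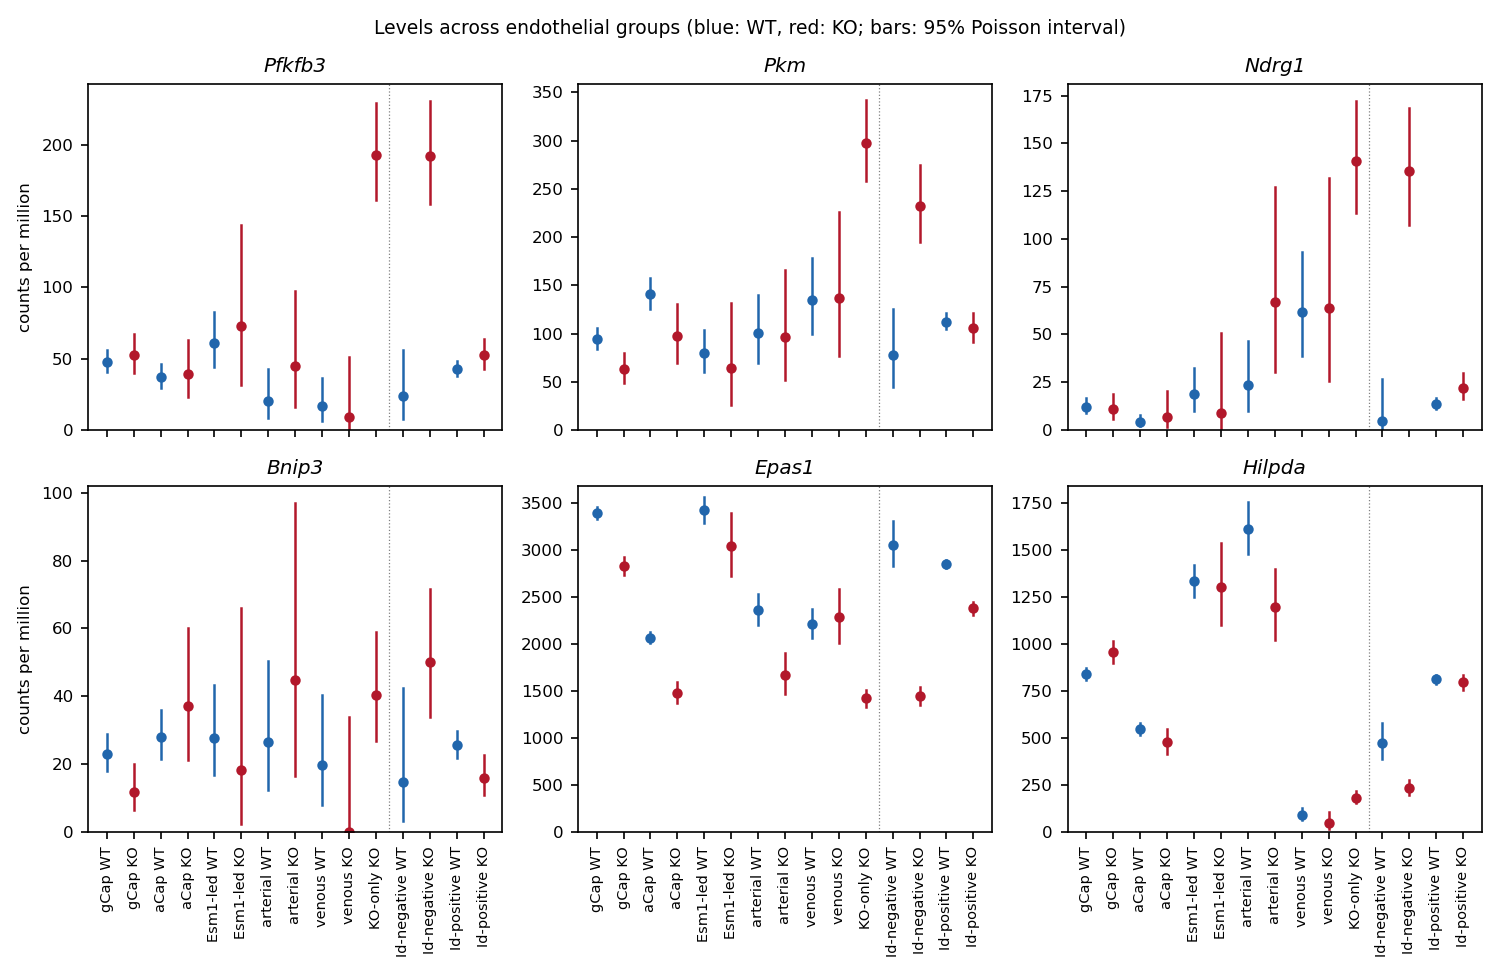
Level of 6 members (CPM, linear axes from 0) in each endothelial class and in Id1/Id3-negative and Id1/Id3-positive cells, with WT in blue, KO in red and 95% Poisson intervals as bars. Pfkfb3, Pkm and Ndrg1 are high in the KO-only cluster (193, 298 and 141 CPM) and in the Id-negative KO cells that overlap with it, while Hilpda is highest in WT arterial-like cells (1614 CPM) and low in venous-like cells.

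Pfkfb3 was high in the KO-only cluster and not in the negative cells outside it. The cluster, found without the members among its genes, had Pfkfb3 at 193 CPM, Pkm at 298 CPM, Ndrg1 at 141 CPM and Pfkp at 82.3 CPM. With the cluster in place of the gate, 6 of 26 members were called higher (7.45% of all genes) and 2 lower (8.36%). Gapdh (265 against 164 CPM) and Hif1a (132 against 74.9 CPM) were then among the higher ones, Gpi1 and Bnip3 were not, and Ankrd37 had a log2 ratio of -0.12. The cluster held 55 Xist-only and 45 Y-only cells, while all KO endothelial-like cells, the cluster included, held 74 and 262. This comparison therefore does not separate the cluster from sex type. Outside the cluster, where 30 negative KO cells remained, 2 of 25 members were called higher (4.28% of all genes) and 2 lower (3.61%). The higher ones were Gpi1, at 400.1 against 132 CPM, and Ankrd37, at 125 against 13.7 CPM, and the lower ones were Epas1 and Hilpda. Pfkfb3 stood there at 16.7 against 48.9 CPM (2 UMIs in the negative cells), a log2 ratio of -1.55, and Ndrg1 at 41.7 against 14.8 CPM (5 UMIs), neither called.

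Sex was looked at within the KO library. Of the Y-only KO cells, 46 were negative, 36 of them in the KO-only cluster, and 211 were positive, 8 of them in that cluster. In negative over positive Y-only cells, 7 of 26 members were called higher (5.60% of all genes) and 2 lower (4.85%), with Gapdh in place of Ankrd37. Ndrg1 stood there at 187 against 18.0 CPM and Pfkfb3 at 203 against 42.5 CPM. Among Xist-only KO cells, only 21 were positive, and 13 of these lay in the KO-only cluster. In that small comparison 0 members were higher (1.96% of all genes) and Gpi1, Gapdh and Pkm were lower (2.92%). Pfkfb3 stood there at 214 against 105 CPM and Ndrg1 at 93.9 against 105 CPM, neither called. Xist-only negative KO cells against Xist-only WT endothelial-like cells gave Gpi1, Pfkfb3, Hif1a and Ndrg1 as higher (7.67% of all genes) and Aldoa, Epas1 and Hilpda as lower (7.78%). In this comparison, which still crosses genotype and library, Pfkfb3 stood at 214 against 41.4 CPM and Ndrg1 at 93.9 against 12.7 CPM. Pkm was not called there, at 154 against 112 CPM. Between Y-only and Xist-only negative KO cells, 2 of 26 members were higher in the Y-only cells (1.07% of all genes) and 0 were lower (0.821%), namely Gapdh at 290.1 against 113 CPM and Pkm at 282 against 154 CPM.

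The same gate in the WT library gave another picture. Of 24 members tested, Arnt was called higher (7.06% of all genes) and Aldoa, Gapdh, Hilpda and Higd1a lower (8.8%). Arnt stood at 135 CPM in the 77 negative and 59.7 CPM in the 1335 positive WT cells, and Gapdh at 48.3 against 153 CPM. Pfkfb3 (24.2 against 43.1 CPM), Pkm (77.3 against 112 CPM) and Epas1 (3059 against 2853 CPM) were not called, and Ndrg1 had 1 UMI in the negative cells. WT negative cells were shallow, with a median of 2593 against 4476 UMIs. In them the oxidative phosphorylation list had 20 of 29 genes lower and a summed level of 2445 against 5775 CPM, and Sftpc stood at 5229 against 2665 CPM. The part of these in the result was not tested.

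The other genes of the 2 pathways, from lists of 26 glycolysis and 37 hypoxia genes, were read in the same way. In negative over positive KO cells, 0 of 6 tested glycolysis genes were called. Of 26 hypoxia genes 5 were higher (6.53% of all genes were) and 1 lower (6.15%), with a median log2 ratio of 0.36. Adm, which encodes the vessel peptide adrenomedullin, stood at 75.2 against 20.6 CPM, the transcription factor Bhlhe40 at 104 against 30.4 CPM, and Nos2, inducible nitric oxide synthase, at 28.4 against 9.26 CPM. Vegfa, the endothelial growth factor, was the lower gene, at 55.2 against 258 CPM. Against WT endothelial-like cells, 10 of 26 hypoxia genes were higher (8.36% of all genes were) and 1 lower (10.1%). Of 7 glycolysis genes 0 were higher and 1 lower. The largest ratios there were those of Adm (61.4-fold, 28.7 to 151), Bhlhe40 (11.9-fold), Ddit4 (5.33-fold) and Nos2 (5.16-fold).

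**Figure D3:**
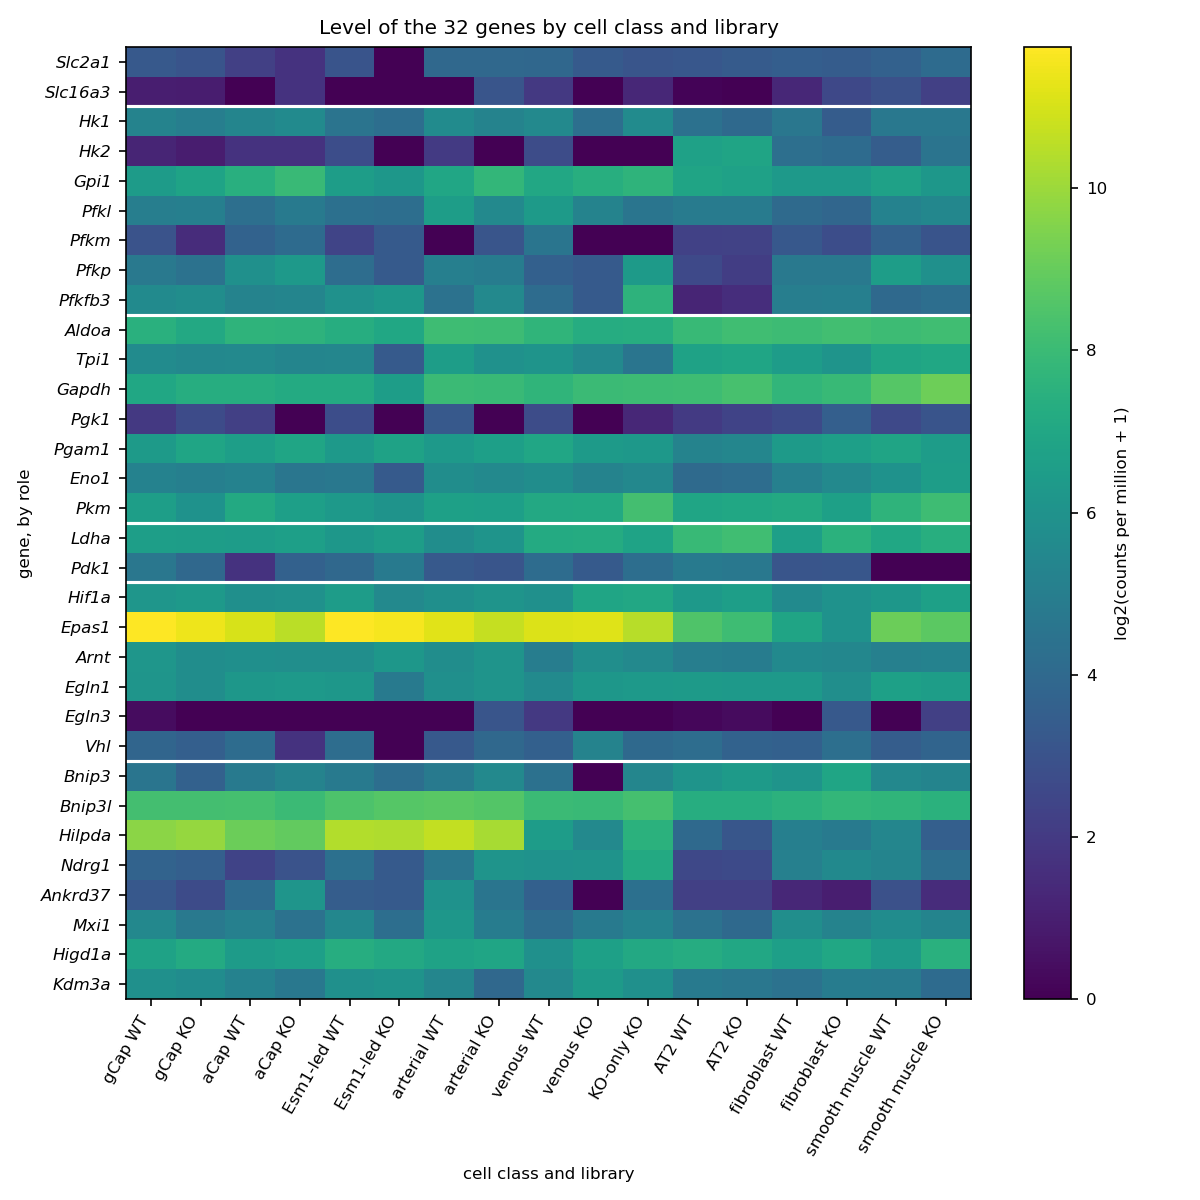
Level of all 32 members as log2(CPM + 1), by colour, in the cell classes other than pericyte-like cells (columns, WT and KO side by side) with genes in rows grouped by role. Epas1 is the brightest row in every endothelial class, Hilpda is bright in endothelium other than venous-like cells and the KO-only cluster, and Hk2 is seen in AT2-like cells (104 CPM in WT).

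In the WT library, members ranged widely in level within gCap-like cells. Counts from the 3′ end do not scale with transcript length, so CPM values can be set side by side between genes as numbers of captured transcripts, apart from differences in capture. Epas1 stood at 3396 CPM (3331 to 3462) and Hilpda at 841 CPM, followed by Bnip3l at 298 CPM, Aldoa at 172 CPM and Gapdh at 125 CPM. Hk1 (37.5 CPM) was the hexokinase found, as Hk2 stood at 1.29 CPM. Pgk1, Pfkm, Slc2a1, Slc16a3, Egln3 and Ankrd37 stood under 10 CPM. Levels of Gapdh are uncertain, because 97 other annotated genes (94 of them pseudogenes) match the last 500 bases of its transcripts at 95% identity over at least 91 bases. Such matches were 6 for Ldha, 5 for Pkm, 4 for Eno1, 3 for Bnip3, 2 each for Aldoa and Gpi1, 1 each for Tpi1 and Higd1a, and 0 for the other members. Few of the matching genes were in the gene list counted here. They were 2 for Gapdh, 1 each for Eno1, Aldoa and Gpi1, and 0 for Ldha, Pkm, Bnip3, Tpi1 and Higd1a.

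WT aerocyte-like cells differed from WT gCap-like cells in 2 members called higher (11.5% of all genes were) and 5 called lower (12.6%). Gpi1 stood at 167 against 85.7 CPM and Pfkp at 59.3 against 25.9 CPM. Pdk1 was lower, at 2.33 against 23.9 CPM, as were Pfkl (18.7 against 31.4 CPM), Kdm3a (35.5 against 59.2 CPM), Epas1 (2067 against 3396 CPM) and Hilpda (547 against 841 CPM). In the Esm1-led cluster Hilpda alone was called, at 1333 against 841 CPM (2.65% of all genes were higher, 3.32% lower). In aCap-like cells 2 and 5 of 25 members is near the share of all genes called.

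Arterial-like cells had 6 of 27 tested members higher than gCap-like cells (6.5% of all genes) and 0 lower (7.22%). They were Pfkl (91.5 against 31.4 CPM), Aldoa (269 against 172 CPM), Tpi1 (91.5 against 50.4 CPM), Gapdh (257 against 125 CPM), Hilpda (1614 against 841 CPM) and Ankrd37 (62.0 against 8.41 CPM). Venous-like cells had 5 of 27 tested members higher (8.52% of all genes) and 5 lower (11.7%). The higher ones were Gpi1, Pfkl, Gapdh, Ldha and Ndrg1, and Ndrg1 stood at 61.7 against 12.3 CPM, 5.02-fold (2.83 to 8.71). The lower ones were Pfkfb3, Epas1, Arnt, Hilpda and Higd1a. Hilpda stood at 89.7 CPM (61.4 to 127) in venous-like and 1614 CPM (1482 to 1755) in arterial-like WT cells. The dissociation and heat stress genes moved with these classes, with 10 of 18 higher in arterial-like and 16 of 18 higher in venous-like cells, and summed levels of 9437, 16727 and 6036 CPM in arterial-like, venous-like and gCap-like cells. Their part in the members' values was not tested.

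AT2 cells make the surfactant of the alveolus, and Hk2 was the hexokinase found in AT2-like cells. Against gCap-like cells 5 of 25 tested members were called higher (16.4% of all genes) and 11 lower (54.7%). Hk2, the second hexokinase, stood at 104 CPM (98.6 to 109) against 1.29 CPM (0.352 to 3.31), 80.3-fold (31.3 to 295). Sftpc itself stood in gCap-like cells at 1.78% of its AT2 level, and the 4 Hk2 UMIs of gCap-like cells are at that background. Ldha (241 against 94.4 CPM), Gapdh (275 against 125 CPM), Tpi1 (106 against 50.4 CPM) and Bnip3 (67.1 against 23.0 CPM) were the other higher members. Pfkfb3 stood at 1.29 against 47.9 CPM and Pfkp at 4.95 against 25.9 CPM, both lower. Epas1 (369 CPM) and Hilpda (15.3 CPM) were lower too, with ratios of 0.109 and 0.0183. The rest of the lower members were Hk1, Pgam1, Eno1, Bnip3l, Arnt, Mxi1 and Kdm3a. The count of higher members is near the share of all genes, and that of lower members is not above it.

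Fibroblast-like cells of WT had 6 of 26 tested members higher (18.8% of all genes) and 7 lower (27.9%) than gCap-like cells. Both counts are near the share of all genes. Hk2 (18.8 CPM), Aldoa (265 CPM), Tpi1 (87.9 CPM), Gapdh (214 CPM), Bnip3 (66.9 CPM) and Ndrg1 (33.8 CPM) were higher, and Epas1 was lower at 115 CPM, a ratio of 0.0339. Pfkl, Pdk1, Bnip3l, Arnt, Hilpda and Kdm3a were the other lower members. Smooth muscle-like cells had 7 of 26 higher (17.4%) and 6 lower (23.6%), the lower count being near the share of all genes. In them 5 of the 6 late glycolytic members tested were higher, namely Aldoa (263 CPM), Tpi1 (116 CPM), Gapdh (394 CPM), Eno1 (63.0 CPM) and Pkm (201 CPM), together with Pfkp (91.1 CPM) and Ndrg1 (38.1 CPM). Pgam1 (114 against 84.4 CPM) was not called. Pdk1 had 0 UMIs in 81 cells, and Pfkfb3, Epas1, Arnt, Hilpda and Kdm3a were lower. Of the dissociation and heat stress list 10 of 18 genes were higher in fibroblast-like and 10 of 18 in smooth muscle-like than in gCap-like WT cells, with summed levels of 8479, 7555 and 6036 CPM. The 12 AT2 markers summed to 16891 CPM in fibroblast-like, 2976 CPM in smooth muscle-like and 5494 CPM in gCap-like WT cells, and Sftpc stood in fibroblast-like cells at 6.76% of its AT2 level. Their part in the members' values, Hk2 included, was not tested. Pericyte-like cells, the cells that wrap capillaries, were few (22 WT, 21 KO), and had Epas1 at 1385 CPM in WT with 1181 CPM in KO, and Hilpda at 364 with 294 CPM, without a comparison made.

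Within the classes compared between the libraries, few members were called. The share of all genes called was smallest in the Esm1-led cluster (1.29% higher, 1.25% lower). It was largest in fibroblast-like cells (3.54% higher, 6.54% lower). In gCap-like cells 0 of 25 tested members were called higher (1.67% of all genes) and 0 lower (2.69%), with a median log2 ratio of -0.20 against -0.02 over all genes. The lowest ratio was that of Bnip3, at 11.7 CPM in KO and 23.0 CPM in WT (0.511, 0.259 to 0.930). Epas1 stood at 2827 against 3396 CPM and Pkm at 63.1 against 94.4 CPM, neither called. Pgam1 (118 against 84.4 CPM) and Higd1a (144 against 108 CPM) lay on the other side, not called. Of the dissociation and heat stress list 9 of 17 tested genes were lower in KO gCap-like cells, with summed levels of 4660 against 6036 CPM, and Sftpc stood at 1663 against 3240 CPM.

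In aCap-like cells 1 of 24 members was called higher in KO (1.9% of all genes) and 0 lower (1.84%). It was Ankrd37, at 69.3 CPM (46.8 to 98.9) against 16.3 CPM (11.4 to 22.7), and with Y-only KO cells alone its log2 ratio was 0.99 against 2.09 and was not called. All 6 early glycolytic members tested had ratios above 1, such as Gpi1 at 245 against 167 CPM (1.46-fold, 1.17 to 1.82), none called. Of the 6 late glycolytic members tested 1 had a ratio above 1, and of all genes 3896 of 8330 did. Of the other hypoxia genes 3 of 22 were higher (1.9% of all genes) and 0 lower (1.84%). The higher ones were Bhlhe40 at 39.3 against 5.13 CPM, P4ha2 at 55.4 against 12.1 CPM and Egln2 at 113 against 64.9 CPM. In the Esm1-led cluster, with only 23 KO cells, 0 of 24 members were called in either direction (1.29% of all genes higher, 1.25% lower). Hilpda stood there at 1304 against 1333 CPM. The KO cells held 109655 UMIs in all, and moderate differences were not detectable at this depth.

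**Figure D4:**
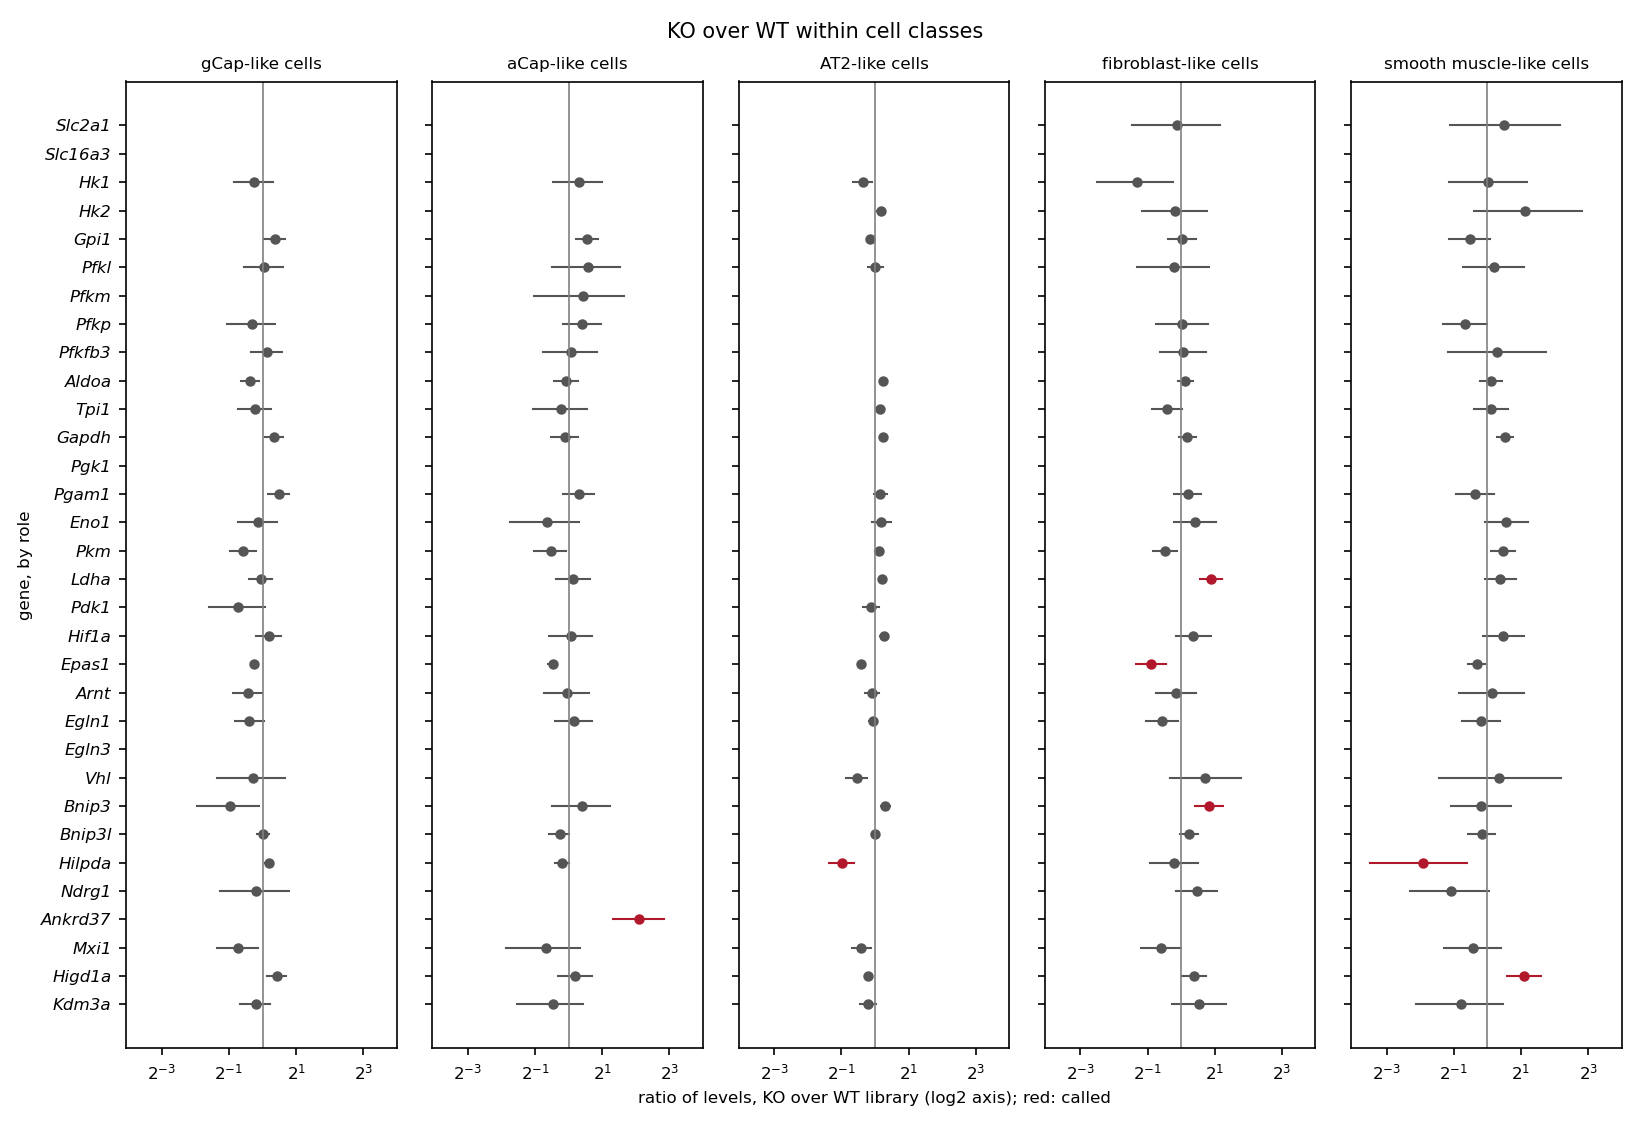
Ratio of levels, KO over WT (x axis, log2 scale), within 5 cell classes for members tested in each, with 95% intervals of the ratio as lines and called members in red. In gCap-like cells 0 members are called, and 1 is called in aCap-like, 1 in AT2-like, 3 in fibroblast-like and 2 in smooth muscle-like cells.

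AT2-like cells were the most deeply counted, with 13946986 WT and 10845648 KO UMIs. There 0 of 23 members were called higher in KO (1.81% of all genes) and 1 lower (2.33%). It was Hilpda, at 7.75 CPM (6.18 to 9.59) against 15.3 CPM (13.4 to 17.5). Narrow intervals put the late glycolytic genes a little above 1, as for Aldoa (284 against 239 CPM, 1.19-fold, 1.13 to 1.25), Gapdh (1.17-fold) and Ldha (1.17-fold), under the fold required. Hk2 stood at 117 against 104 CPM. Among KO AT2-like cells, Y-only over Xist-only cells had Pfkl and Epas1 higher (4.91% of all genes) and Eno1 lower (4.28%), so called differences also occurred between cells of the 2 sex types within 1 library.

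In fibroblast-like cells 2 of 26 members were called higher in KO (3.54% of all genes) and 1 lower (6.54%). Ldha stood at 179 CPM (154 to 207) against 96.9 CPM (80.9 to 115), 1.85-fold (1.47 to 2.33), and Bnip3 at 118 against 66.9 CPM, 1.77-fold (1.33 to 2.35). Epas1 stood at 62.0 against 115 CPM, but with each cell thinned to 1500 UMIs its log2 ratio was 0.16. Ldha had a log2 ratio of 1.26 in the fibroblast-like cluster led by Dcn and Col1a1 and of 0.24 in that led by Inmt and Mfap4, where Bnip3 had 1.35. Hif1a (62.0 against 48.1 CPM) and Pkm (101 against 140 CPM) were not called. Beside these values, AT2 markers differed strongly, with 12 of 12 detected in both libraries and summed levels of 1356 CPM in KO and 16891 CPM in WT, and of 18 dissociation genes 11 were lower and 1 higher in KO (5745 against 8479 CPM). Their part in the result was not tested.

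In smooth muscle-like cells 1 of 26 members was called higher in KO (2.09% of all genes) and 1 lower (3.5%). Higd1a, a mitochondrial protein induced by hypoxia, stood at 176 CPM (142 to 214) against 82.9 CPM (61.5 to 109), 2.12-fold (1.49 to 3.04). Hilpda stood at 10.9 against 41.4 CPM, with 6 and 25 UMIs. Gapdh (569 against 394 CPM), Pkm (277 against 201 CPM) and Eno1 (92.3 against 63.0 CPM) were higher by less than the fold required and were not called. Here 12 of 18 dissociation genes were lower and 2 higher in KO, with summed levels of 6866 against 7555 CPM, and their part was not tested.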

How the data were processed

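Counts are UMI counts per gene and cell from single cell 3′ v3 libraries (10x Genomics), as deposited by the authors. Cell Ranger 3.0.1 and mm10 are named in the submitters' processing notes, and other settings are not given in the sources used here. Cells needed 500 detected genes and no more than 10% of UMIs from mitochondrial genes, and doublets called by Scrublet were removed (37 WT, 12 KO). Both libraries were clustered together (scanpy 1.11.5, leidenalg 0.10.2, 1483 variable genes, 30 components, 20 neighbours, resolution 1) without the members, the genes of the other pathway lists and genes that differed between the libraries. Clusters were named from marker lists, and the rule for scoring markers was revised after the first clusters were seen. A planned comparison of the remaining capillary clusters came down to the Esm1-led cluster. A cluster led by platelet and erythroid genes (59 WT and 45 KO cells) was kept out of the endothelial-like set. For each class, the UMIs of a gene over all cells of a library were divided by the total to give CPM, with exact Poisson intervals and, for ratios, exact conditional binomial intervals. The calling was tested on simulated counts. Each member was looked up in every comparison. In the main comparisons the called members are named with some of the others, and up to 4 called genes of the other lists are named. The members and lists were chosen with earlier results of these data known. Promoters are from RefSeq (GRCm38.p6) and gene positions from GENCODE M21 (GRCm38). Alternatives were other cell filters, thinning to 1500 UMIs, TMM scaling, no minimum level, per-cell means, Y-only KO cells, a 2-fold rule and other definitions of the Id gate.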

Additional observations from a re-analysis of the deposited data

How the results depend on the processing

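No paired analysis was possible because each group is 1 library. Members called are given as they changed by setting, and the cause was not tested. The shares of all genes printed above for the main comparisons do not apply to other settings. These counts therefore show dependence on the setting only, and are not read as results about the members. This holds most for per-cell means, where no interval was required. Under the stricter cell filter (at least 1000 genes, at most 5% mitochondrial UMIs) those called lower were 1 in gCap-like, 3 in AT2-like and 2 in fibroblast-like cells, 1 in Id-negative over positive KO cells and 2 in the WT gate, and those higher were 3 in smooth muscle-like cells. Thinning to 1500 UMIs gave 2 higher in aCap-like cells, 0 lower in AT2-like cells, 0 in either direction in fibroblast-like and smooth muscle-like cells, 3 higher in Id-negative over positive KO cells, 5 higher against WT, and 0 higher and 2 lower in the WT gate. TMM scaling gave 3 higher in smooth muscle-like cells. Per-cell means, by fold alone, gave 4 lower in gCap-like, 6 higher and 4 lower in aCap-like, 1 higher and 9 lower in Esm1-led, 2 lower in AT2-like, 7 higher and 6 lower in fibroblast-like and 3 higher in smooth muscle-like cells, 4 lower in Id-negative over positive KO cells, and 2 higher and 12 lower in the WT gate. Y-only KO cells gave 1 lower in gCap-like, 0 higher and 2 lower in aCap-like, 1 higher in fibroblast-like and 0 lower in smooth muscle-like cells. A 2-fold rule gave 0 lower in AT2-like cells, 0 in either direction in fibroblast-like cells, 1 lower in Id-negative over positive KO cells, 5 higher against WT and 2 lower in the WT gate. Outside the KO-only cluster 2 were higher in Id-negative KO cells. Single clusters, chosen after seeing the data, gave 1 lower in gCap cluster 3, 2 lower in fibroblast cluster 7 and 0 lower in fibroblast cluster 10; cluster 17 (6 and 10 cells) was not run. Log2 ratios turned for Epas1 in thinned fibroblast-like cells (0.16), for Ankrd37 with the KO-only cluster in place of the gate (-0.12) and for Pfkfb3 outside it (-1.55). The other counts stayed within 1.5 times (116 values), and of the values for single members 266 stayed within their interval and 45 moved outside it without turning. Leaving out, after seeing the data, the 5 negative KO cells highest for a gene left log2 ratios of 0.24 for Gpi1, 0.78 for Pkm, 1.58 for Pfkfb3 and 2.19 for Ndrg1. Depth limits the Esm1-led, arterial-like and venous-like KO cells most.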

Other observations

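Some of the other hypoxia genes also differed between the libraries in fibroblast-like and smooth muscle-like cells. In fibroblast-like cells 5 of 30 tested were higher (3.54% of all genes) and 2 lower (6.54%) in KO. Hmox1, haem oxygenase, stood at 60.1 against 14.3 CPM, Lox, the collagen-crosslinking oxidase, at 1415 against 392 CPM, and Stc2 at 85.2 against 24.8 CPM. In smooth muscle-like cells 4 of 26 were higher (2.09% of all genes) and 2 lower (3.5%), and Lox (244 against 99.4 CPM) was among the higher ones. Of the other glycolysis genes, Pdk4, the pyruvate dehydrogenase kinase of fasting, was higher in KO in AT2-like cells (30.2 against 9.97 CPM) and in fibroblast-like cells (72.7 against 28.6 CPM). These are single libraries, and the AT2 RNA and dissociation genes given in the report differed between the fibroblast-like cells as well.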
